A study of Homo sapiens with 6 samples.

Results

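The genes for the immune checkpoint ligands of tumour cells were examined in CAL-27, a human line established from squamous carcinoma of the tongue. The 10 genes CD274, PDCD1LG2, CD276, VTCN1, CD80, LGALS9, PVR, NECTIN2, CD47 and IDO1 were chosen by function as inhibitory ligands, or as an enzyme with the same outcome, that a tumour cell can turn against T cells, natural killer (NK) cells or phagocytes. They are 10 of the 19736 genes with a named probe, and 17 probes of the array belong to them. RNA of shXBP-1s cells, in which an shRNA targets XBP-1s (n = 3), was compared with that of shCtrl cells, which carry a control shRNA (n = 3), 1 array per sample, on 1-colour Agilent arrays. No drug, cytokine or immune cell is named for either group. The study's methods call the cells stably transduced, whereas the labels call the same step a transfection, and the number of shRNA sequences or clones behind the shXBP-1s group is not given in the sources used here. Nothing in the labels says that the 3 samples of a group came from separate cultures, so p-values measure the spread between these samples, which may be technical.

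Checkpoint ligands sit on the surface of a tumour cell and engage receptors on immune cells that dampen killing or engulfment. CD274 (PD-L1) and PDCD1LG2 (PD-L2) bind PD-1 on T cells, PVR (CD155) and NECTIN2 (CD112) bind TIGIT and the opposing receptor DNAM-1 on T and NK cells, and CD47 binds SIRPα on macrophages. IDO1 works by another route, as a cytosolic enzyme that consumes tryptophan and makes kynurenine. Several of these genes, with CD274 and IDO1 as the best known, are induced by interferon-γ, in part through the transcription factor IRF1, while XBP-1s is the transcription factor made by the IRE1α arm of the unfolded protein response.

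Values are given either as the signal of a probe, a background-subtracted fluorescence not yet scaled between arrays, or as its log2 level, the log2 signal minus the 75th percentile of the array. That percentile was 687.4 to 761.3 on the shCtrl arrays and 792.0 to 983.4 on the shXBP-1s arrays, so unscaled signals lean towards shXBP-1s and all differences are of log2 levels. On each array 82.1% to 84.8% of spots stood well above background, no spot was saturated, and the number of arrays limits the precision. Different probes bind with different strength, so the level of a probe is not set against that of another. The scan dates recorded for the 6 arrays gave 2 sets, which are called slides here although no slide label was used. Slide 1 held shCtrl replicates 2 and 3, and slide 2 held all shXBP-1s samples and the remaining control, shCtrl replicate 1.

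XBP1, the gene of the shRNA target, was lower in shXBP-1s. Which splice forms its probe reads was not tested. The XBP1 probe gave signals of 2536, 2743 and 2766 in shCtrl and of 695.4, 617.2 and 551.0 in shXBP-1s. Its log2 level fell by 2.39 (log2 fold change -2.39, SE 0.04, adjusted p = 2.81e-07 by limma with Benjamini-Hochberg adjustment), and no shXBP-1s array reached the shCtrl arrays. The squamous markers KRT5, KRT14, KRT6A, KRT17, TP63, EPCAM, CDH1, DSG3, SFN and JUP were all 10 well above background on all 6 arrays, but so were 10 leukocyte markers, so this detection does not separate cell types.

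The checkpoint ligands did not move as 1 block in shXBP-1s. Probes of 4 genes were higher, namely PVR, CD47, CD274 and CD276, probes of 3 genes were lower, namely NECTIN2, IDO1 and PDCD1LG2, and VTCN1, CD80 and LGALS9 had no probe that passed. The PDCD1LG2 count rests on a probe near background that met the filter for testing through shCtrl alone, the group in which it is higher, while the brighter PDCD1LG2 probe read -0.06. PVR moved farthest, with a rise of 2.20-fold on its brightest probe, and the other changes were below 2-fold. All 17 probes stood well above background on every array of shCtrl, the filter for testing asking this of either group, and were tested by limma with Benjamini-Hochberg adjustment over 27624 probes, a probe passing at an adjusted p below 0.05. Of the 17, 9 passed (52.9%, against 41.7% of all tested probes), 6 of them higher (35.3%, against 18.4%) and 3 lower (17.6%, against 23.3%). At a change of at least 2-fold 1 probe was higher (5.88%, against 2.29%). The 3 shXBP-1s values lay wholly above or below the 3 shCtrl values for 12 probes (70.6%, against 52.4%), 9 above and 3 below. The median log2 fold change of the 17 probes was 0.15 and their range -0.69 to 1.14, against a median of -0.02 over all tested probes. Probes and genes of this set are few and not independent, so these shares describe the set and carry no test.

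**Figure D1:**
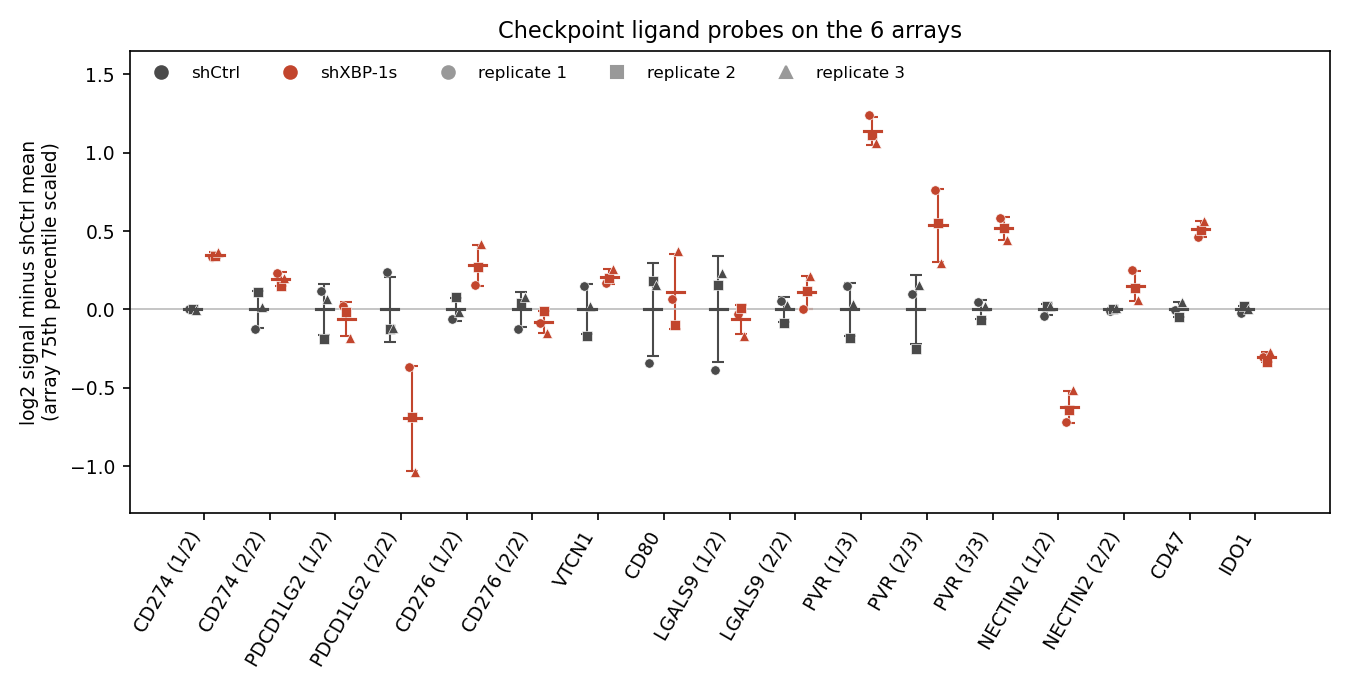
Log2 level of each checkpoint ligand probe on the 6 arrays, with the shCtrl mean of the probe subtracted (vertical axis, log2 units). Each marker is 1 array, horizontal ticks are group means and bars are SD (n = 3), and probes of a gene are numbered from the brightest to the dimmest. The 3 shXBP-1s arrays lie apart from shCtrl at all 3 PVR probes, at CD47, at the brighter NECTIN2 probe and at IDO1, and overlap with shCtrl at CD80 and at both LGALS9 probes.

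The starts of 4 of these genes are printed because they moved most clearly or carry letters of interferon or XBP1 sites. The promoter windows came from RefSeq (GRCh38.p14), run from 250 bases before to 50 bases after the start, and matched 8 of the 10 genes. The searched letters, on both strands, were GAAANNGAA for an interferon-stimulated response element, TTCNNNGAA for a gamma-activated site, GACGTG for the core of an XBP1 site and CCACG for the conserved end of the ER stress element. GACGTG followed by G would also hold CCACG on the opposite strand, which did not occur in the windows printed here. Of the 35116 windows in the table, 8.11% held GAAANNGAA, 7.66% TTCNNNGAA, 7.81% GACGTG and 38.1% CCACG. The 250 bases before the start follow, 5′ to 3′ on the strand of the gene, with matches in capitals. They are chr9:5450292-5450541 on the plus strand for CD274, chr3:108091032-108091281 on the minus strand for CD47, chr19:44846047-44846296 on the plus strand for NECTIN2 and chr19:44643660-44643909 on the plus strand for PVR.
CD274: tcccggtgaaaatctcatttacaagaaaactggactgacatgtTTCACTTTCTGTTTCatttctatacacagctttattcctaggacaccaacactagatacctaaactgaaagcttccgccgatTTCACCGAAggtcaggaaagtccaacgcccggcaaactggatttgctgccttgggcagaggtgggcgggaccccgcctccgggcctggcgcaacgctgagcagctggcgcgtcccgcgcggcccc
CD47: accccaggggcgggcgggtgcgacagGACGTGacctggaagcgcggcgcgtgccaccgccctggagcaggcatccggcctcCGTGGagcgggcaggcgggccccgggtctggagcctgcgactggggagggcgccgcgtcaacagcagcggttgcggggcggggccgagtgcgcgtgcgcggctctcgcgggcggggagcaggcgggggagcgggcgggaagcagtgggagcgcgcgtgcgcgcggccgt
NECTIN2: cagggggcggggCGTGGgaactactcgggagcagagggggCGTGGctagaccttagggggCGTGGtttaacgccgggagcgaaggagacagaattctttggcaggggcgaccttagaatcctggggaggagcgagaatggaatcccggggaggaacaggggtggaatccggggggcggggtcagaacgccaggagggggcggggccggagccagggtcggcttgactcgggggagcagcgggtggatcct
PVR: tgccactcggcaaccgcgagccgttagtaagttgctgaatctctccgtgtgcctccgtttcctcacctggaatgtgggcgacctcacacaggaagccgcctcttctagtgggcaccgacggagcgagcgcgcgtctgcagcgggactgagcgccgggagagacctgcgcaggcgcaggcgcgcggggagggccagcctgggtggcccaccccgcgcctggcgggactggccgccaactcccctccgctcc

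The CD274 stretch held 2 overlapping GAAANNGAA matches, both on the opposite strand and beginning 207 and 201 bases before the start, and 1 TTCNNNGAA match 125 bases before it. The CD47 stretch held 1 GACGTG match at 224 bases and 1 CCACG match, on the opposite strand, at 169 bases before the start. The NECTIN2 stretch held 3 CCACG matches, all on the opposite strand, and the PVR stretch held none of the 4 motifs. Of the other members, LGALS9 held 1 GAAANNGAA match that reaches the start, CD80 held 1 CCACG match, and the windows of VTCN1 and CD276 held none. A match names letters only and is not evidence that a factor binds there.

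CD274, which encodes PD-L1, was higher in shXBP-1s on the brighter of its 2 probes. That probe (A_23_P338479) gave signals of 78.8, 87.1 and 85.9 in shCtrl replicates 1 to 3 and of 141.7, 129.6 and 116.8 in shXBP-1s replicates 1 to 3. Every shXBP-1s array lay above every shCtrl array, and the replicates were close, with a log2 level of -3.13 ± 0.0055 in shCtrl and -2.78 ± 0.02 in shXBP-1s (mean ± SD, n = 3 each). The log2 fold change was 0.35 (SE 0.06, 95% interval 0.21 to 0.49, limma adjusted p = 0.00218). The dimmer probe (A_33_P3381513) gave signals of 25.8, 33.6 and 31.2 in shCtrl and of 47.3, 40.5 and 37.2 in shXBP-1s, again without overlap. Its log2 fold change of 0.19 did not pass (95% interval -0.04 to 0.43, adjusted p = 0.162).

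PDCD1LG2, which encodes PD-L2 and lies near CD274 on chromosome 9, gave low signals and no rise. Its brighter probe (A_33_P3213707) gave signals of 22.6, 20.3 and 24.0 in shCtrl and of 30.2, 26.8 and 21.2 in shXBP-1s. After scaling the groups overlapped, with a log2 fold change of -0.06 (95% interval -0.36 to 0.24, adjusted p = 0.744). The dimmer probe (A_23_P94412) gave signals of 12.9, 11.1 and 11.1 in shCtrl and of 12.1, 8.85 and 6.14 in shXBP-1s, where it was well above background on 2 of the 3 arrays. Its log2 fold change was -0.69 (SE 0.22, 95% interval -1.21 to -0.18, adjusted p = 0.0383). The call was lost in 8 of the 18 alternatives that tested this probe. It was lost when any 1 of the 3 shCtrl arrays or shXBP-1s replicate 2 or 3 was left out, with adjusted p up to 0.105, and under normexp followed by quantile normalization the value was -0.07 (adjusted p = 0.0524).

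CD276, which encodes the B7-H3 protein found on many carcinomas, was higher on its bright probe. That probe (A_33_P3222917) gave signals of 4670, 5708 and 5295 in shCtrl and of 7779, 7659 and 7507 in shXBP-1s. Its log2 level was 2.83 ± 0.07 in shCtrl and 3.11 ± 0.13 in shXBP-1s (mean ± SD, n = 3 each), without overlap, and the log2 fold change was 0.28 (SE 0.07, 95% interval 0.11 to 0.45, adjusted p = 0.0162). A second probe (A_33_P3217393), with signals of 35.8 to 45.4 in shCtrl and 40.5 to 52.7 in shXBP-1s, overlapped between the groups and had a log2 fold change of -0.08 (95% interval -0.30 to 0.14, adjusted p = 0.530). The call on the bright probe was lost in 3 of 19 alternatives, without shCtrl replicate 3 (0.27, adjusted p = 0.0526), without shXBP-1s replicate 2 (0.29, adjusted p = 0.0514) and under the methods' test with adjustment (adjusted p = 0.0791).

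VTCN1 encodes B7-H4, a further inhibitory member of the B7 family. Its probe gave signals of 40.3, 35.9 and 40.7 in shCtrl and of 58.7, 54.4 and 50.3 in shXBP-1s. The groups did not overlap after scaling, and the log2 fold change was 0.21 (95% interval -0.03 to 0.45, adjusted p = 0.145). CD80, a ligand of CD28 and CTLA-4 that is typical of antigen-presenting cells, read close to background, with signals of 6.85, 10.9 and 10.6 in shCtrl and of 13.01, 10.5 and 12.9 in shXBP-1s. The CD80 groups overlapped and the log2 fold change was 0.11 with a wide 95% interval of -0.39 to 0.61 (adjusted p = 0.712).

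LGALS9 encodes galectin-9, a secreted lectin that binds TIM-3 on T cells. Its brighter probe (A_33_P3420416) gave signals of 56.5, 91.5 and 95.4 in shCtrl and of 103.9, 96.7 and 75.9 in shXBP-1s. The shCtrl arrays spread widely here, with an SD of 0.34 log2 units, and the log2 fold change was -0.06 (95% interval -0.43 to 0.30, adjusted p = 0.780). The dimmer probe (A_23_P116557), with signals of 45.0 to 48.6 in shCtrl and 57.7 to 62.0 in shXBP-1s, also overlapped after scaling, with a log2 fold change of 0.11 (95% interval -0.10 to 0.32, adjusted p = 0.377). LGALS9 has the near-identical copies LGALS9B and LGALS9C, so which copy these probes read is uncertain.

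PVR, the ligand of TIGIT, CD96 and DNAM-1, was higher on all 3 of its probes. The brightest (A_24_P65616) gave signals of 93.1, 81.8 and 94.4 in shCtrl and of 283.2, 236.6 and 201.9 in shXBP-1s. Its log2 level was -3.03 ± 0.17 in shCtrl and -1.90 ± 0.09 in shXBP-1s (mean ± SD, n = 3 each), with every shXBP-1s array well above every shCtrl array. The log2 fold change, 1.14 (SE 0.10, 95% interval 0.92 to 1.36, adjusted p = 5.22e-05), stood at percentile 98.2 of all tested probes. The next probe (A_32_P72110) gave 81.5, 70.7 and 93.1 in shCtrl and 184.5, 145.4 and 107.7 in shXBP-1s, with the log2 fold change at 0.54 (SE 0.15, 95% interval 0.20 to 0.87, adjusted p = 0.0191). The dimmest (A_23_P141894) gave 26.96, 27.6 and 29.2 in shCtrl and 56.1, 48.8 and 41.0 in shXBP-1s, with the log2 fold change at 0.52 (SE 0.09, 95% interval 0.30 to 0.73, adjusted p = 0.00282). None of the 3 overlapped between the groups. All carry the same RefSeq transcript accession and count as 1 gene, and whether they read the same transcripts was not tested. The size of the rise depended on the probe and the processing, and the brightest probe read 0.71 under normexp followed by quantile normalization and 0.99 with a slide block. The call on A_32_P72110 was lost with the slide as a block (0.44, adjusted p = 0.153) and when shCtrl replicate 2, shXBP-1s replicate 1 or shXBP-1s replicate 2 was left out (0.41 to 0.53, adjusted p of 0.0511 to 0.0629).

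NECTIN2, the partner of PVR in the TIGIT and PVRIG axes and located near it on chromosome 19, moved the other way on its bright probe. That probe (A_23_P208293) gave signals of 4365, 5042 and 4996 in shCtrl and of 3906, 3745 and 3627 in shXBP-1s, lower even before scaling. Its log2 level was 2.71 ± 0.03 in shCtrl and 2.08 ± 0.10 in shXBP-1s (mean ± SD, n = 3 each), and the groups were far apart. The log2 fold change was -0.62 (SE 0.06, 95% interval -0.76 to -0.48, adjusted p = 1.02e-04), and it passed under all 19 alternatives at -0.68 to -0.53. The value of -0.53 came under normexp alone, where it was -0.12 relative to the median of all tested probes. The second probe (A_23_P352870), which carries the accession of another NECTIN2 transcript, gave 112.0, 124.7 and 124.5 in shCtrl and 191.8, 161.1 and 135.1 in shXBP-1s. Its log2 fold change of 0.15 did not pass (95% interval -0.01 to 0.31, adjusted p = 0.118). Whether these probes read different NECTIN2 transcripts was not tested, since no probe sequence was used here.

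CD47, the signal that holds off phagocytes, was bright in CAL-27 and higher in shXBP-1s. Its probe (A_23_P6935) gave signals of 10470, 11245 and 11886 in shCtrl and of 20685, 19405 and 17849 in shXBP-1s. All 3 shXBP-1s arrays lay above shCtrl, with a log2 level of 3.93 ± 0.05 in shCtrl and 4.44 ± 0.05 in shXBP-1s (mean ± SD, n = 3 each). The log2 fold change was 0.51, or 1.43-fold (SE 0.05, 95% interval 0.40 to 0.63, adjusted p = 1.11e-04). CD47 passed under all 19 alternatives, at log2 fold changes of 0.49 to 0.64.

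IDO1, the tryptophan-degrading enzyme, was lower in shXBP-1s once the arrays were scaled. Its probe lay on 10 spots per array, of which 7 to 10 were used, with an SD between spots of 0.07 to 0.18 log2 units within an array. The mean signals were 407.0, 463.4 and 454.4 in shCtrl and 479.4, 425.8 and 394.3 in shXBP-1s, and before scaling they overlapped. The log2 level was -0.74 ± 0.02 in shCtrl and -1.04 ± 0.03 in shXBP-1s (mean ± SD, n = 3 each), without overlap, so the fall is one relative to the rest of the array. The log2 fold change was -0.30 (SE 0.05, 95% interval -0.41 to -0.19, adjusted p = 0.00123). In RNA from a whole culture, fewer cells that express a gene and less RNA per cell cannot be told apart, which holds for every value here.

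**Figure D2:**
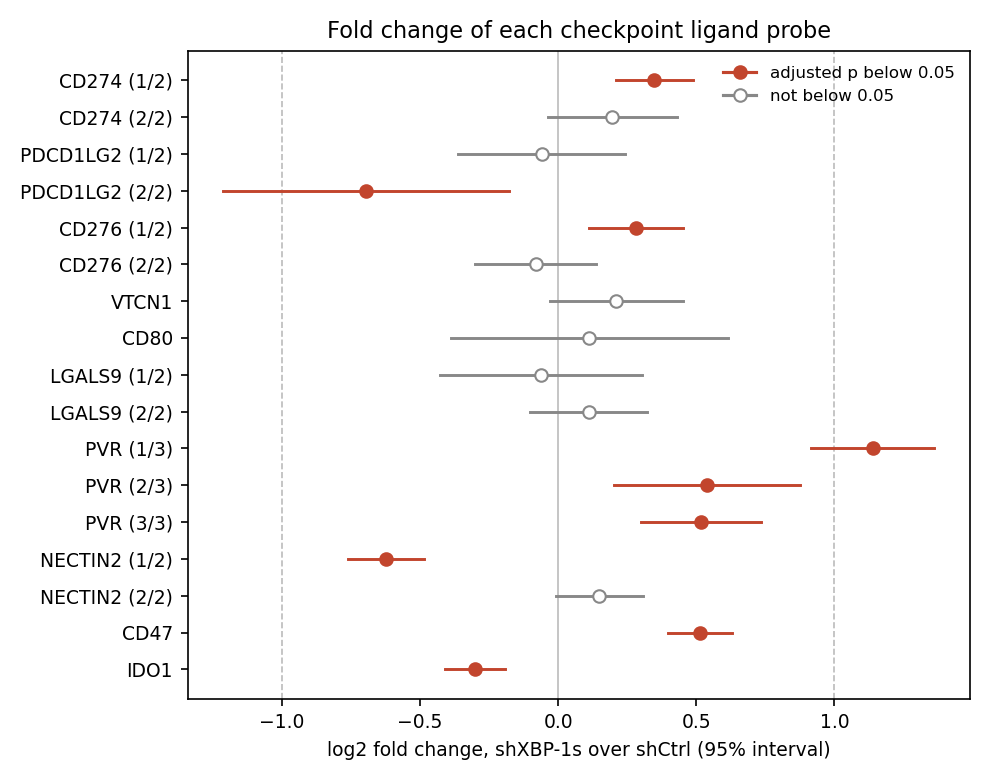
Log2 fold change of shXBP-1s over shCtrl (horizontal axis) for each checkpoint ligand probe, with its 95% interval from limma. Filled red points passed at an adjusted p below 0.05, dashed lines mark 2-fold, and probes of a gene are numbered from the brightest. The brightest PVR probe at 1.14 lies past 2-fold, while the NECTIN2 (-0.62) and IDO1 (-0.30) intervals lie below 0.

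Of the 6 genes with several probes, CD276, LGALS9 and NECTIN2 had probes of both signs, although no gene had probes that passed in opposite directions. Taking the brightest probe of each of the 10 genes, 4 passed higher and 2 lower, against 18.9% higher and 27.5% lower among 16817 genes, and the median log2 fold change was 0.16 against -0.04. The rises were sensitive to how background was handled. Under normexp background correction alone the median of all tested probes moved to -0.41. The 3 probes that passed were those of CD47 (0.64), CD276 (0.38) and NECTIN2 (-0.53). Set against that median, these 3 read 1.05, 0.79 and -0.12. PVR then read 0.37 on its brightest probe and CD274 -0.21 on its brighter probe, neither passing, and relative to the shifted median these were 0.78 and 0.21. Relative to that median, 11 of the 17 probes kept the sign given above, and IDO1 stood at 0.06.

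A slide block sets the 3 shXBP-1s arrays against shCtrl replicate 1, the only control on slide 2, so its fold change equals the value within that slide and rests on 1 control array. Slide 1 holds shCtrl arrays only. With this block the log2 fold changes included 0.34 for CD274, 0.34 for CD276, 0.51 for CD47, -0.58 for NECTIN2 and -0.28 for IDO1 on their brightest probes. The brighter LGALS9 probe turned from -0.06 to 0.33 with the block, without passing (adjusted p = 0.0539).

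**Figure D3:**
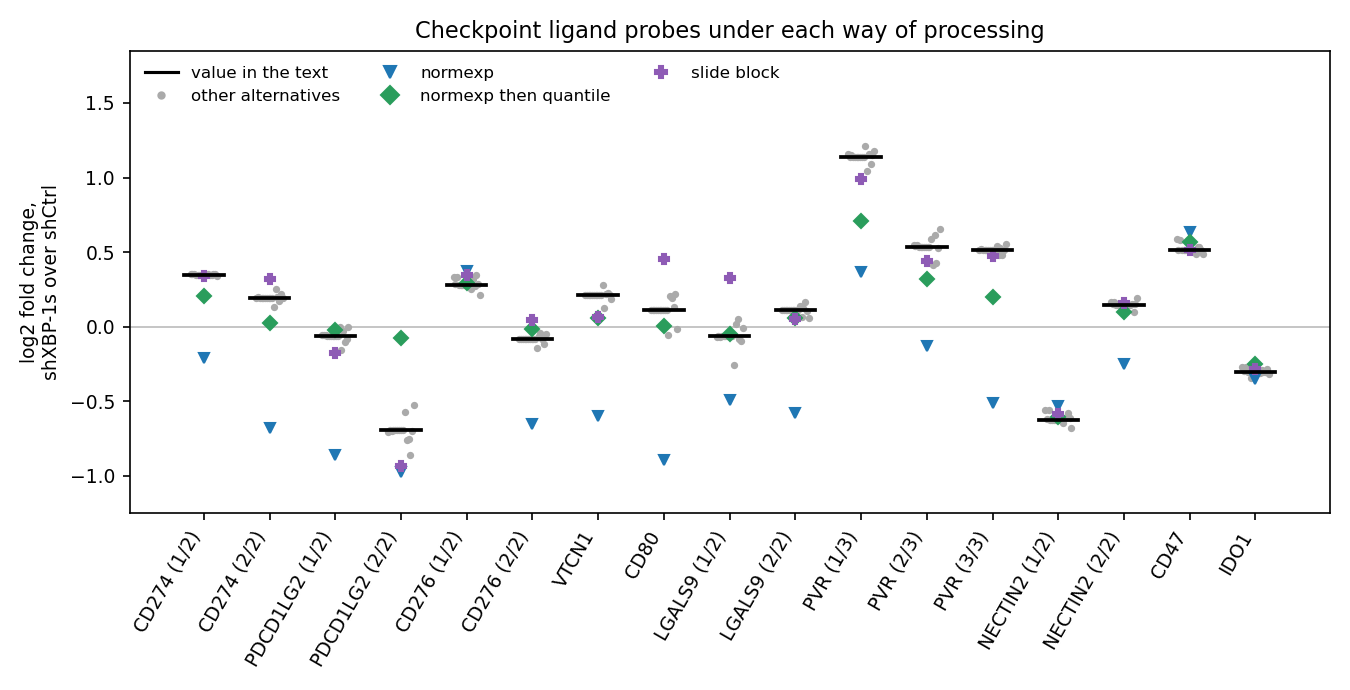
Log2 fold change of shXBP-1s over shCtrl (vertical axis) for each checkpoint ligand probe under the processing of the text (black line) and 19 alternatives (markers), with normexp, normexp followed by quantile normalization and the slide block drawn apart. CD47, the brighter NECTIN2 probe and IDO1 stay on their side of 0 under every alternative. Dim probes such as CD80 and VTCN1 fall below 0 under normexp alone, where the median of all tested probes was -0.41.

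The levels of the markers of other cells were read beside these results. The squamous markers summed to 108 to 115 times the 75th percentile of the array in shCtrl and to 147 to 173 times in shXBP-1s, and 8 of the 10 were higher, among them KRT6A (log2 fold change 4.28), KRT14 (1.58) and DSG3 (1.17), while EPCAM (0.01) and CDH1 (0.13) did not pass. Of 11 leukocyte markers 10 had a probe and all 10 were well above background on all 6 arrays, with sums of 8.09 to 9.71 in shCtrl and 7.23 to 7.64 in shXBP-1s. CD14 (-0.84) was lower and CD68 (0.65) and CD4 (0.17) were higher, and PTPRC (0.05) did not pass. Of 7 fibroblast markers COL3A1 and THY1 were not well above background on any array, and the list summed to 0.970 to 1.06 in shCtrl and 0.661 to 0.682 in shXBP-1s. Of the 5 tested, LUM (1.94) and DCN (1.43) were higher, PDGFRB (-1.28) and COL1A1 (-0.63) were lower, and COL1A2 (-0.07) did not pass. Of 5 endothelial markers TEK was not well above background, the 4 tested did not pass, and the sums were 0.217 to 0.277 in shCtrl and 0.261 to 0.279 in shXBP-1s. The part of these marker changes in the checkpoint ligand results was not tested.

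Among other inhibitory surface proteins and enzymes, CD24 had the largest rise. Of 24 listed genes 21 were tested by their brightest probe, 8 passed higher and 4 lower (against 18.9% and 27.5% of all genes), with a median log2 fold change of 0.11. CD24, the ligand of Siglec-10 on macrophages, rose by a log2 fold change of 4.73 (adjusted p = 1.14e-06). ARG2, an arginase of mitochondria, rose by 0.88, NECTIN1, an adhesion molecule that binds CD96, by 0.77, and NT5E (CD73), which makes adenosine, by 0.76 on the log2 scale. BTN3A1, a butyrophilin read by γδ T cells, fell by 0.55 on the log2 scale. Under normexp alone NECTIN1 stood at 0.01, with the median of all tested probes at -0.41, and did not pass.

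Receptors for the ligands belong to immune cells, and 9 of 15 were bright enough to be tested, while TIGIT, CD226 (DNAM-1), CD96 and HAVCR2 (TIM-3) were not. Of the 9, 1 passed higher and 3 lower, against 18.9% and 27.5% of all genes. SIRPA, the receptor of CD47 (-0.32), PDCD1, which encodes PD-1 (-0.30), and SIRPG, a further CD47 partner (-0.44 on its brighter probe, all log2 fold changes), were lower. The second SIRPG probe read 0.13 and did not pass (limma adjusted p = 0.643). CD200R1, the receptor of CD200, read 1.04 near background, on a probe that met the filter for testing through shXBP-1s alone, with 1 shCtrl array of 3 failing it, and it turned to -0.72 under normexp alone. PDCD1 and SIRPG did not pass with the slide as a block (adjusted p of 0.0736 and 0.0800) or under normexp alone.

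In the interferon-γ pathway upstream of CD274 and IDO1, IRF1 and SOCS3 were lower and STAT3 and JAK2 higher. All 13 listed genes were tested, 3 were higher and 4 lower, near the shares of all genes (18.9% and 27.5%), and the median log2 fold change was 0.04. IRF1, the transcription factor that acts on interferon response elements, fell by 0.71 and SOCS3, a feedback inhibitor, fell by 0.74 on the log2 scale. STAT3 rose by 0.50 and JAK2, the kinase bound to the interferon-γ receptor, by 0.34. IRF1, SOCS3 and STAT3 passed under all 19 alternatives, and JAK2 did not under normexp alone. IRF1 was lower in the same arrays in which IDO1 was lower and the brighter CD274 probe was higher.

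Among genes that handle the PD-L1 or CD47 protein, CMTM4 and GSK3B changed most on the brightest probe of each gene. The dimmer CUL3 probe changed more, at -2.10 (limma adjusted p = 0.00149), against -0.15 on the brightest CUL3 probe. Of 12 genes, all tested, 3 were higher and 3 lower, near the shares of all genes (18.9% and 27.5%), with a median of -0.09. CMTM4 and CMTM6, membrane proteins that protect PD-L1 from degradation, fell by 0.91 and 0.26, and SPOP, a ubiquitin ligase adaptor that targets PD-L1, by 0.37 on the log2 scale. GSK3B, a kinase that marks PD-L1 for degradation, rose by 0.86 and STT3A, a catalytic subunit of the oligosaccharyltransferase that glycosylates PD-L1, by 0.23. CMTM6 did not pass under normexp alone (-0.11, with the median of all tested probes at -0.41) or followed by quantile normalization (-0.14). Protein was not measured here.

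Around IDO1, in tryptophan use and kynurenine turnover, CYP1A1, CYP1B1 and KYNU were higher. Of 17 listed genes 16 had a probe and 14 were tested by their brightest probe. Of these 7 were higher and 2 lower, against 18.9% and 27.5% of all genes, a difference that was not tested. The median log2 fold change was 0.23. AFMID, among the 7 and named after its values were seen, read 0.27 (limma adjusted p = 0.0398). Its dimmer probes read -0.42, which passed lower (limma adjusted p = 0.0427), and -0.10. The second HAAO probe, of another of the 7, read -0.05, while those of KMO, AHR and CYP1B1 passed higher. CYP1A1 and CYP1B1, known targets of the kynurenine-responsive aryl hydrocarbon receptor, rose by 1.95 (adjusted p = 4.44e-06) and 0.78 (adjusted p = 1.86e-05). TIPARP of the same list, named after its values were seen, read 0.21 and did not pass (limma adjusted p = 0.188). The second TIPARP probe read -0.20, and the activity of the receptor was not tested. KYNU, which cleaves kynurenine, rose by 1.17 (adjusted p = 3.18e-05) and KMO, which hydroxylates it, by 0.43 on its brightest probe. SLC7A5, the transporter that imports tryptophan, fell by 0.39 on the log2 scale. CYP1A1, CYP1B1 and KYNU passed under all 19 alternatives, and KMO and SLC7A5 did not under normexp alone.

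**Figure D4:**
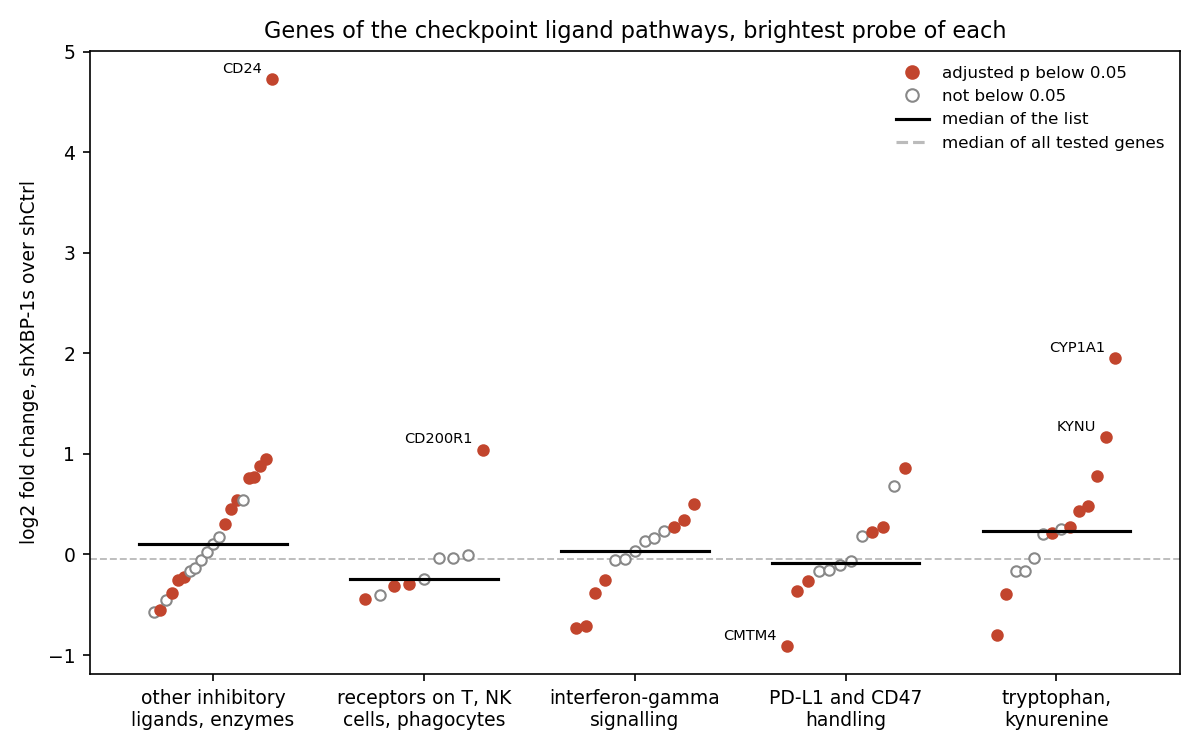
Log2 fold change of shXBP-1s over shCtrl (vertical axis) for the tested genes of each list, each point being the brightest probe of a gene. Filled red points passed at an adjusted p below 0.05, black lines are list medians and the dashed line is the median of all tested genes (-0.04). CD24 (4.73), CYP1A1 (1.95) and KYNU (1.17) lie far above it, and CD200R1 (1.04) is a probe near background in shCtrl.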

How the data were processed

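The authors deposited, per array, a file from Agilent Feature Extraction 11.0.1.1 that gives each spot an intensity with the background subtracted. A deposited table of log2 values served as an alternative, and the submitters' processing notes name RMA without saying for which step. The labels describe NimbleGen labelling, whereas the files are of Agilent arrays. Outlier-flagged spots (230 to 377 per array) were dropped from the intensities, log2 signals were scaled to the 75th percentile of the array, and a probe took the mean of its spots. Well above background means so for over 50% of a probe's spots. Of 34127 probes, 25767 had a symbol through RefSeq accessions and 19 lacked an array. The 27624 probes that met this on 3 of 3 arrays in either group were fitted with limma 3.58.1 in R 4.3.3 (lmFit, eBayes with trend, 2-sided) after a check on simulated data. With 3 arrays a group, an exact permutation test of 1 probe cannot go under p = 0.1.

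The members, lists and tests were chosen with earlier results of these data known. Named are all 10 members with every probe, XBP1, the defining markers and, of each list, up to 5 genes whose brightest probe had the smallest adjusted p below 0.05. Some genes that this rule names are not reported here. Receptors that were not tested are named too, chosen after their values were seen. Replicate numbers did not pair the samples (correlations of deviations -0.02, 0.12 and -0.12). Alternatives were quantile or median scaling, normexp (offset 50, on the median spot signal) alone or with quantile normalization, the deposited values, no or a stricter filter, flagged spots kept, limma without trend, the methods' t-test, the replicate or slide block and leaving out each array.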

Additional observations from a re-analysis of the deposited data

How the results depend on the processing

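Of 322 member values recomputed under 19 alternatives, 288 kept their direction and side of the threshold, 18 lost their call, 1 gained one and 15 changed sign. The count of member probes at an adjusted p below 0.05, 9 in the text, was 3 under normexp alone and 6 to 9 when arrays were left out in turn. The count at 2-fold or more, 1 in the text, was 0 under normexp, 0 under normexp with quantile normalization and 0 with the slide block, and 1 without any 1 array. With the replicate block the counts were 9 and 1, the XBP1 log2 fold change was -2.39, and no call of a member changed. The shares of all tested probes under these alternatives are not given here, so the counts compare settings only. Under normexp alone, log2 fold changes turned to -0.21 and -0.68 for CD274, -0.89 for CD80, -0.58 for LGALS9 (A_23_P116557), -0.25 for NECTIN2 (A_23_P352870), -0.13 and -0.51 for PVR (A_32_P72110 and A_23_P141894) and -0.60 for VTCN1. The median of all tested probes was then -0.41. Relative to it the brighter CD274 probe read 0.21, PVR (A_32_P72110) 0.29 and NECTIN2 (A_23_P352870) 0.16. The other probes just listed stayed below 0 relative to that median. With the slide block CD276 (A_33_P3217393) turned to 0.042 and LGALS9 (A_33_P3420416) to 0.33. With arrays left out in turn CD80 ranged from -0.057 to 0.22, below 0 without shCtrl replicate 1 or shXBP-1s replicate 3, and PDCD1LG2 (A_33_P3213707) from -0.15 to 0.00047, above 0 without shXBP-1s replicate 3. LGALS9 (A_33_P3420416) ranged from -0.26, where it passed without shCtrl replicate 1 (limma adjusted p = 0.0378), to 0.051, above 0 without shCtrl replicate 2 or 3. None of the probes that changed sign with a slide block or a left-out array had passed in the text. PDCD1LG2 (A_23_P94412) could not be tested where all 6 arrays had to be well above background. IDO1 missed the threshold under normexp alone (adjusted p = 0.0835). The causes were not tested. Dim probes, close to background, limit what can be said of CD80, PDCD1LG2 and VTCN1. The dimmer CD274 probe and the dimmest PVR probe gave lower shCtrl signals than VTCN1, so the limit holds for them too.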

Other observations

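In several genes of the lists a dimmer probe differed from the brightest by more than 0.7 log2 units, chosen here after the values were seen. The second KMO probe had a log2 fold change of 2.95 (limma adjusted p = 4.13e-06), against 0.43 on the brightest. The second CUL3 probe, for the cullin of the ligase that SPOP joins, had -2.10 (limma adjusted p = 0.00149). The brightest CUL3 probe had -0.15 and did not pass (limma adjusted p = 0.144). The second AHR probe, for the aryl hydrocarbon receptor, had 0.95 (limma adjusted p = 7.00e-06), against 0.21 on the brightest. The second CEACAM1 probe had 0.47 without passing (limma adjusted p = 0.116), against -0.25 on the brightest.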
